A study of Mus musculus with 11 samples.

Results

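The transcripts of 10 keratin genes linked to the hair follicle or to the stress response of the epidermis were followed through all 11 libraries of sorted mouse back skin epidermis. The genes were taken by name: *Krt15*, *Krt24*, *Krt17*, *Krt79*, *Krt75*, *Krt6a*, *Krt6b*, *Krt16*, *Krt8* and *Krt18*. They are 10 of 54 annotated genes with a *Krt* number and of 55536 genes in the files, and all 10 passed the filter on low counts. In the files' annotation (Ensembl 96, GRCm38), *Krt24* (chr11:99279959-99285262), *Krt15* (chr11:100131758-100135928), *Krt16* (chr11:100246091-100248902) and *Krt17* (chr11:100256217-100261029) lie in the type I cluster. *Krt75* (chr15:101563345-101573904), *Krt6b* (chr15:101676023-101680287), *Krt6a* (chr15:101689910-101694307), *Krt79* (chr15:101929332-101940324) and *Krt8* (chr15:101996698-102004482) lie in the type II cluster, next to the type I gene *Krt18* (chr15:102028180-102032027). All are on the minus strand but *Krt18*.

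All mice were males on a C57Bl6/N background and carried both alleles of the lineage label, a *CD4Cre* transgene and the R26-tdT reporter. tdT therefore marks every cell that descends from a cell in which the *Cd4* promoter was active, T cells included, and says nothing of *Cd4* expression at the time of the sort. Integrin alpha 6 (CD49f) and CD34 were used to sort one population without SCA-1 on the surface (CD49f+CD34+) and one with it (CD49f+CD34+SCA-1+, called SCA-1+ from here), and each was split into tdT+ and tdTneg cells. The groups held 3 tdT+CD49f+CD34+, 3 tdTnegCD49f+CD34+, 3 tdT+ SCA-1+ and 2 tdTneg SCA-1+ libraries. Each library pooled 2 mice, of 29 weeks for replicate 1 and of 32 weeks for replicates 2 and 3. Library totals ran from 17409131 to 46542177 counts on genes.

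Keratins are the intermediate filament proteins of epithelia. A filament is built from type I and type II keratins that pair with each other, so each epithelial compartment shows its own pairs. KRT5 and KRT14 form the network of basal keratinocytes, and KRT1 and KRT10 replace it in suprabasal cells. Of the 10 genes, *Krt15* (type I) is the classical keratin of bulge stem cells, and *Krt24* (type I) is a less studied keratin. *Krt17* (type I) belongs to the outer root sheath, *Krt75* (type II) to the companion layer and *Krt79* (type II) to the infundibulum and the sebaceous duct. *Krt6a*, *Krt6b* (type II) and *Krt16* (type I) are made in follicle layers and are induced in interfollicular keratinocytes after wounding or other stress. *Krt8* (type II) and *Krt18* (type I) form the pair of simple epithelia, of hepatocytes and, in the skin, of Merkel cells.

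Some libraries stood apart from the rest before any comparison. *Alb*, the albumin gene of hepatocytes, reached 9564, 4393 and 6099 normalized CPM (counts scaled to library size by edgeR's TMM method) in replicate 1 of tdT+CD49f+CD34+, the library labelled replicate 2 of tdT+CD49f+CD34+ and tdTnegCD49f+CD34+ replicate 2, and at most 37.3 in the other 8 libraries. The summed level of 17 hepatocyte genes was 34636, 16447 and 19384 CPM in these 3 libraries and 11.6 to 123 elsewhere. The bulge gene *Cd34*, whose protein was used in the sort, lay between 468 and 1130 CPM in CD49f+CD34+ libraries, at 320 and 383 in tdTneg SCA-1+ and at 22.3 to 35.7 in tdT+ SCA-1+ libraries. 6 T cell genes summed to 205 to 643 CPM in tdT+ SCA-1+ libraries, 53.9 to 56.6 in tdTneg SCA-1+, 19.3 to 44.1 in tdT+CD49f+CD34+ and 1.2 to 4.5 in tdTnegCD49f+CD34+ libraries. 6 endothelial genes summed to 1608 and 1653 CPM in the tdTneg SCA-1+ libraries and to at most 419 elsewhere. A row outside the Ensembl genes was high in every tdT+ library but the library labelled replicate 2 of tdT+CD49f+CD34+, where it was as low as in tdTneg libraries, so that the tdT state of that library is uncertain. The part of these differences in the keratin results was not tested, and the main results are given with and without the 3 libraries rich in *Alb*. Their omission leaves replicate 3 as the only tdT+CD49f+CD34+ library, whose group is then assumed to vary like the others. In bulk samples, fewer cells of a type and less RNA per cell cannot be told apart.

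**Figure D1:**
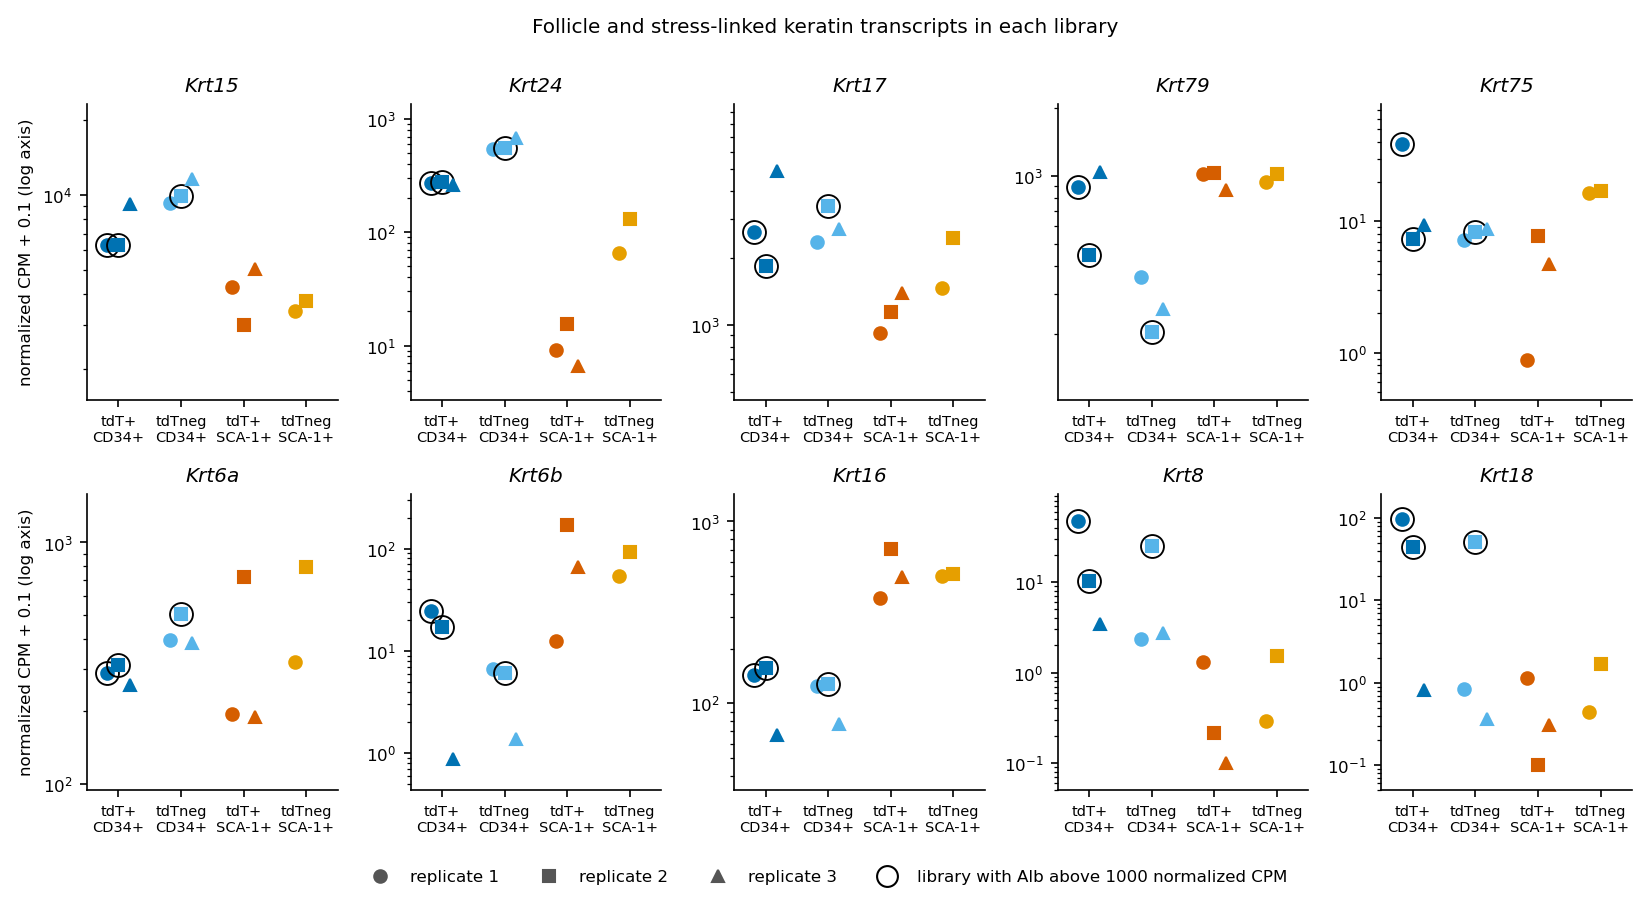
Level of each keratin gene in each library, as normalized CPM plus 0.1 on a log axis with a range of its own in each panel. Colours and columns are the 4 sorted groups (CD34+ is CD49f+CD34+ and SCA-1+ is CD49f+CD34+SCA-1+), shapes the replicates, and black rings the 3 libraries with *Alb* above 1000 normalized CPM. *Krt15* and *Krt24* were lower and *Krt16* higher in every SCA-1+ library than in every CD49f+CD34+ library, and *Krt18* exceeded 2 CPM in the ringed libraries alone.

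The first question was which keratins distinguish the population with SCA-1 from the one without it. As the mean over both tdT states, *Krt16*, *Krt6b* and *Krt79* were higher in SCA-1+ cells and *Krt15*, *Krt24* and *Krt8* lower. A gene was called at a Benjamini-Hochberg adjusted p under 0.05, from edgeR's quasi-likelihood test over 20307 genes, and an absolute log2 fold change over 1. By this rule 6 of the 10 keratins were called, 3 in each direction, against 11.6% of all genes tested (4.77% higher and 6.79% lower). Without the 3 libraries rich in *Alb*, 5 were called, since *Krt8* and *Krt79* were lost and *Krt17* was gained, against a background of 13.6% (8.74% higher and 4.88% lower). Libraries of the populations did not overlap for 4 of the 10 (*Krt15*, *Krt24*, *Krt16* and *Krt8*), as for 10.8% of all genes. Within tdT+ cells 3 of the 10 were called against 8.45% of all genes, and within tdTneg cells 4 against 4.74%, and without the libraries rich in *Alb* 5 in each, against 9.62% and 8.47%. The 5 within tdT+ cells then rest on 1 CD49f+CD34+ library. With the 32-week libraries alone, 2 per group or 1 for tdTneg SCA-1+, 2 of the 10 were called, against 1.37% of all genes, *Krt24* (-3.43, adjusted p = 0.0242) and *Krt16* (2.37, adjusted p = 0.0468), while *Krt15* (-1.24, adjusted p = 0.174) was not. At 29 weeks there was 1 library per group and no test. The median log2 fold change of the 10 genes was -0.75, beside -0.09 over all genes tested.

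**Figure D2:**
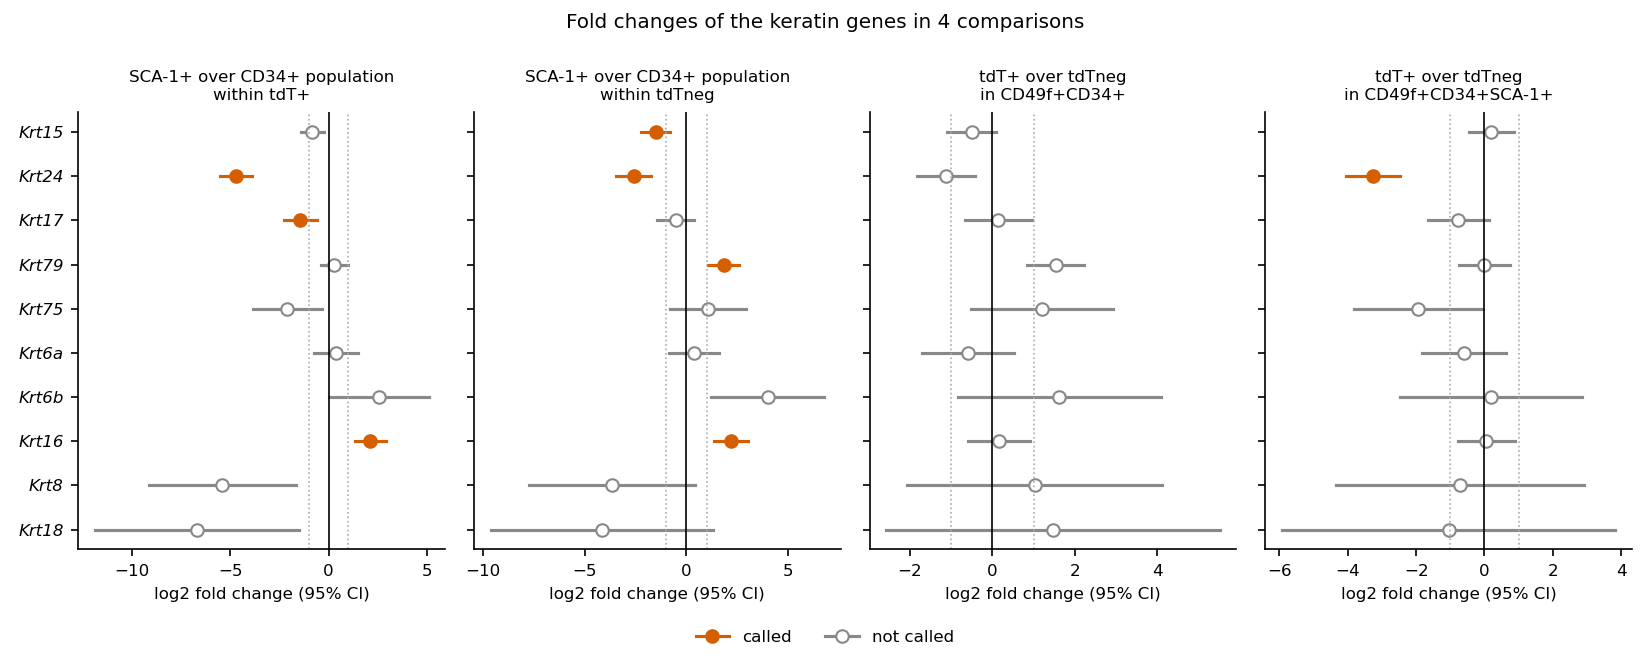
Log2 fold changes of the 10 keratin genes from edgeR with 95% confidence intervals, between populations within tdT+ and tdTneg cells and between tdT+ and tdTneg cells within each population. Filled orange points are called genes, dotted lines mark a log2 fold change of 1 in either direction, and each panel has its own horizontal scale. *Krt24* and *Krt16* were called within both tdT states, *Krt24* was called between tdT+ and tdTneg SCA-1+ cells, and the intervals of *Krt8* and *Krt18* were the widest in all 4 panels.

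The keratins of the bulge were the more abundant in CD49f+CD34+ cells. *Krt15* stood at 6274, 6312 and 9217 CPM in tdT+CD49f+CD34+, 9280, 9868 and 11555 in tdTnegCD49f+CD34+, 4259, 3018 and 5040 in tdT+ SCA-1+ and 3425 and 3743 in tdTneg SCA-1+ libraries. Every SCA-1+ library was thus below every CD49f+CD34+ library. The log2 fold change was -1.17 (SE 0.20, edgeR adjusted p = 0.0038), and it was -1.34 (adjusted p = 0.0017) without the libraries rich in *Alb*. Within tdTneg cells the log2 fold change was -1.51 (adjusted p = 0.0236), a call that was lost when any of 4 tdTneg libraries was left out (CD49f+CD34+ replicates 1 and 3 with adjusted p = 0.0513 and 0.0828, and both SCA-1+ replicates with adjusted p = 0.227 and 0.155). Within tdT+ cells it was -0.82 (adjusted p = 0.0707), and -1.18 (adjusted p = 0.0381) without the libraries rich in *Alb*, against replicate 3 of tdT+CD49f+CD34+ alone.

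*Krt24* separated all 4 sorted groups. Its level was 275, 277 and 264 CPM in tdT+CD49f+CD34+ libraries and 549, 557 and 678 in tdTnegCD49f+CD34+ libraries. In SCA-1+ cells it was 8.98, 15.4 and 6.503 CPM in the tdT+ libraries and 65.8 and 132 in the tdTneg libraries. None of the 4 groups overlapped another, and their order was tdTnegCD49f+CD34+, tdT+CD49f+CD34+, tdTneg SCA-1+ and tdT+ SCA-1+. Libraries did not overlap for 16% of all genes tested for tdT in CD49f+CD34+ cells, for 33% for tdT in SCA-1+ cells and for 10.8% between populations. The tdT step in CD49f+CD34+ cells was not called (edgeR adjusted p = 0.353), and it includes the library whose tdT state is uncertain. Between populations the log2 fold change was -3.66 (SE 0.28, edgeR adjusted p = 0.00013) as the mean over tdT, -4.72 (adjusted p = 0.00017) within tdT+ and -2.59 (adjusted p = 0.0086) within tdTneg cells. The call within tdTneg cells was lost without tdTneg SCA-1+ replicate 1 (-2.19, adjusted p = 0.0814), which leaves 1 library in that group. The mean over tdT was -3.65 when the libraries rich in *Alb* were omitted.

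*Krt17*, the outer root sheath keratin, was 2605, 1833 and 4909 CPM in tdT+CD49f+CD34+ and 2348, 3426 and 2711 in tdTnegCD49f+CD34+ libraries. It was 921, 1147 and 1395 CPM in tdT+ SCA-1+ and 1469 and 2456 in tdTneg SCA-1+ libraries, so that the populations overlapped only through 1 tdTneg SCA-1+ library and the lower CD49f+CD34+ libraries. The mean log2 fold change of -0.98 (SE 0.28, edgeR adjusted p = 0.0365) stayed within the fold threshold, and it was -1.21 (adjusted p = 0.0032) without the libraries rich in *Alb*. It also passed the threshold without tdT+CD49f+CD34+ replicate 1 (-1.04), the library labelled replicate 2 of tdT+CD49f+CD34+ (-1.12), tdTnegCD49f+CD34+ replicate 1 (-1.04) or tdT+ SCA-1+ replicate 3 (-1.06). Within tdT+ cells *Krt17* was lower in SCA-1+ cells (-1.43, adjusted p = 0.0331), and omission of any tdT+ library except the one labelled replicate 2 of tdT+CD49f+CD34+ ended that call (adjusted p from 0.0533 to 0.105). Without the libraries rich in *Alb*, which leaves 1 tdT+CD49f+CD34+ library, it was -2.11 (adjusted p = 0.0025).

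*Krt79*, the infundibular keratin, showed the opposite order. It was 358, 203 and 257 CPM in tdTnegCD49f+CD34+ libraries and 937 and 1016 in tdTneg SCA-1+ libraries, a log2 fold change of 1.84 (SE 0.34, edgeR adjusted p = 0.0153). Leaving out tdTnegCD49f+CD34+ replicate 3 or either tdTneg SCA-1+ library ended this call (adjusted p = 0.0724, 0.101 and 0.0591), and without the libraries rich in *Alb* it was 1.71 (adjusted p = 0.0010). Within tdT+ cells the levels overlapped, at 895, 444 and 1043 CPM in CD49f+CD34+ and 1022, 1031 and 869 in SCA-1+ libraries (log2 fold change 0.29, adjusted p = 0.552). The mean over both states, 1.07 (adjusted p = 0.0101), lay just past the fold threshold, and it fell to 0.80 (adjusted p = 0.0090) without the libraries rich in *Alb*, to 0.92 without the library labelled replicate 2 of tdT+CD49f+CD34+ and to 0.98 without tdTnegCD49f+CD34+ replicate 2.

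*Krt75*, the companion layer keratin, was rare. Its level was 38.9 CPM in tdT+CD49f+CD34+ replicate 1 and between 0.773 and 16.9 in the other 10 libraries. The populations overlapped (log2 fold change -0.52, 95% interval -1.80 to 0.76, edgeR adjusted p = 0.571), and without that 1 library the estimate was 0.06.

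Among the keratins of the stress response, *Krt16* separated the populations completely. It was 144, 157 and 66.6 CPM in tdT+CD49f+CD34+ and 124, 128 and 77.1 in tdTnegCD49f+CD34+ libraries. SCA-1+ libraries held 379, 708 and 493 CPM with tdT and 503 and 513 without it. The log2 fold change was 2.16 (SE 0.26, edgeR adjusted p = 0.000575) as the mean over tdT, 2.10 (adjusted p = 0.0047) within tdT+ and 2.21 (adjusted p = 0.0121) within tdTneg cells, where it was lost without CD49f+CD34+ replicate 3 (adjusted p = 0.0558) or SCA-1+ replicate 1 (adjusted p = 0.0871). The mean was 2.67 (adjusted p = 0.000146) when the libraries rich in *Alb* were left out.

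*Krt6b*, a type II partner of KRT16, was lower in abundance and far more variable. It was 24.5, 16.9 and 0.771 CPM in tdT+CD49f+CD34+, 6.49, 5.92 and 1.27 in tdTnegCD49f+CD34+, 12.5, 171 and 65.5 in tdT+ SCA-1+ and 53.4 and 92.3 in tdTneg SCA-1+ libraries. Only the lowest SCA-1+ library lay within the range of the CD49f+CD34+ libraries. The mean log2 fold change was 3.28 (SE 0.84, edgeR adjusted p = 0.0240). Leaving out tdT+ SCA-1+ replicate 2 or either tdTneg SCA-1+ library ended the call (adjusted p = 0.0517, 0.0581 and 0.0732). Without the libraries rich in *Alb*, 2 of which hold the highest CD49f+CD34+ values, it was 5.49 (adjusted p = 0.0058). The estimates within tdT+ (2.56, adjusted p = 0.158) and within tdTneg cells (3.996, adjusted p = 0.0991) were not called over all libraries, and both were without the libraries rich in *Alb* (6.71 with adjusted p = 0.0393, and 4.26 with adjusted p = 0.0331). The first of these rests on replicate 3 alone of tdT+CD49f+CD34+, where *Krt6b* stood at 0.771 CPM.

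*Krt6a*, the more abundant of the 2 paralogs, did not separate the populations. It ranged from 256 to 505 CPM over the 6 CD49f+CD34+ libraries and from 189 to 793 over the 5 SCA-1+ libraries, with replicate 2 the highest in both SCA-1+ groups (722 and 793 CPM). The log2 fold change was 0.38 (95% interval -0.45 to 1.21, edgeR adjusted p = 0.519). It turned to -0.08 without tdT+ SCA-1+ replicate 2 and was 0.53 without the libraries rich in *Alb*.

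The *Krt6a* and *Krt6b* values rest on nearly the same letters, which is why their sequences are shown. Their coding sequences, aligned over 1659 bases of the Krt6a-201 and Krt6b-201 transcripts (GENCODE M21, GRCm38), were identical at 97.8% of positions, and 1315 of these bases lay in identical runs of 50 or more. The 60-base coding window in which they differed most, at 10 positions, is given 5′ to 3′ on the coding strand, with the differing bases in capitals. Both genes lie on the minus strand of chromosome 15, with the *Krt6a* window at chr15:101692484-101692543 and the *Krt6b* window at chr15:101678303-101678362.
Krt6a: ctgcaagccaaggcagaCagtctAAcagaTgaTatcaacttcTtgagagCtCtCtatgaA
Krt6b: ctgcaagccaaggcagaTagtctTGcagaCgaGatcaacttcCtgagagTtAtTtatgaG
Over all exons, 57.2% of the 50-base stretches of *Krt6a* and 50.1% of those of *Krt6b* occur in another annotated gene, 972 of them shared between the pair. A read inside such a stretch cannot be placed by its sequence, and the treatment of such reads by the counting is not stated, so the split between the genes is uncertain. Of *Krt16* stretches 37.6% occur elsewhere, mostly in the pseudogene *Gm11597* (18 counts over all libraries), and of *Krt8* stretches 29.7%, mostly in *Krt8-ps* (2 counts). For *Krt15*, *Krt24*, *Krt17*, *Krt79*, *Krt75* and *Krt18* the share was at most 3.99%.

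Since the paralogs share so much sequence, their ratio was also compared, a quantity chosen after its values were seen. *Krt6b* made up 7.82%, 5.17% and 0.300% of *Krt6a* and *Krt6b* counts in tdT+CD49f+CD34+ and 1.62%, 1.16% and 0.330% in tdTnegCD49f+CD34+ libraries. In SCA-1+ cells the share was 5.995%, 19.1% and 25.7% with tdT and 14.3% and 10.4% without it. SCA-1+ libraries averaged 15.1% ± 7.66 (SD, n = 5) and CD49f+CD34+ libraries 2.73% ± 3.07 (SD, n = 6), 12.4 percentage points apart (two-sided exact permutation test, p = 0.00433). With arrangements only within a replicate number, since same-numbered libraries are read as sorted from 1 pool of mice, the exact permutation p was 0.0185 (the smallest that 108 arrangements give is 0.00926). It was 14.4 points when the libraries rich in *Alb* were omitted (exact permutation p = 0.0357).

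**Figure D3:**
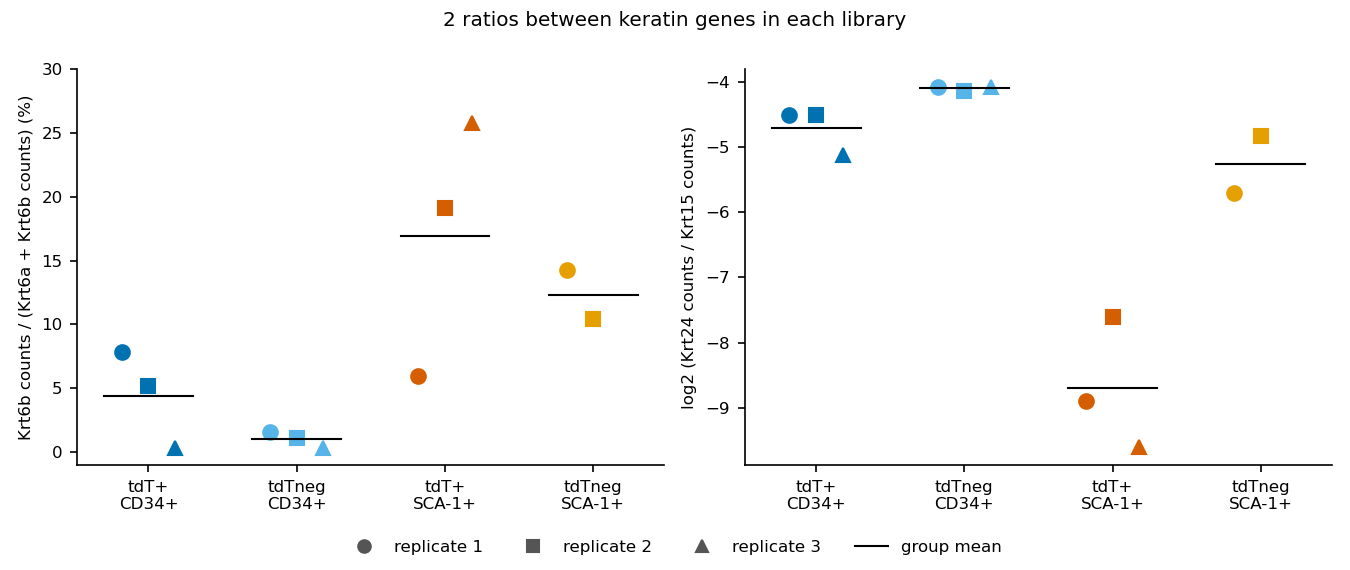
*Krt6b* as a percentage of *Krt6a* and *Krt6b* counts (left) and the log2 ratio of *Krt24* to *Krt15* counts (right) in each library, with group means as black lines and shapes for the replicates. The *Krt6b* share lay under 8% in all CD49f+CD34+ libraries and between 5.995% and 25.7% in SCA-1+ libraries, and the *Krt24* to *Krt15* ratio was lowest in the 3 tdT+ SCA-1+ libraries.

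*Krt24* fell further than *Krt15*, its fellow bulge keratin. The log2 ratio of *Krt24* to *Krt15* counts, also chosen after its values were seen, lay between -5.13 and -4.08 in CD49f+CD34+ libraries. It was -5.70 and -4.83 in tdTneg SCA-1+ libraries and -8.89, -7.61 and -9.60 in tdT+ SCA-1+ libraries. The populations differed by -2.92 in the mean (two-sided exact permutation test, p = 0.00433, and 0.00926 within replicate numbers), with 1 tdTneg SCA-1+ library inside the CD49f+CD34+ range. The difference was -2.89 on omission of the libraries rich in *Alb* (exact permutation p = 0.0714, where no less than 0.0179 is possible).

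*Krt8* and *Krt18*, the keratins of simple epithelia, were highest in the 3 libraries rich in *Alb*. *Krt18* was 97.5 CPM in tdT+CD49f+CD34+ replicate 1, 44.5 in the library labelled replicate 2 of tdT+CD49f+CD34+, 50.5 in tdTnegCD49f+CD34+ replicate 2 and at most 1.59 in the other 8 libraries. *Krt8* was 47.4, 10.3 and 25.1 CPM in the same 3 libraries and between 0 and 3.36 in the others. For every 1000 *Alb* counts these libraries held 10.2, 10.1 and 8.28 *Krt18* counts, and 4.96, 2.35 and 4.12 *Krt8* counts.

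Over all libraries *Krt8* was called lower in SCA-1+ cells (log2 fold change -4.52, 95% interval -7.39 to -1.65, edgeR adjusted p = 0.0365). *Krt18* had a larger but less certain estimate (-5.42, adjusted p = 0.0570, and -5.18 with adjusted p = 0.0390 in a fit blocked on replicate number). Within tdT+ cells *Krt8* was not called (-5.39, adjusted p = 0.0633), and it was in the blocked fit (-5.53, adjusted p = 0.0429). Without the libraries rich in *Alb* the estimate for *Krt18* was 0.11 (adjusted p = 0.981) and that for *Krt8* was -2.20 (adjusted p = 0.170). *Krt8* then stood at 3.36, 2.23 and 2.66 CPM in the remaining CD49f+CD34+ libraries and at 1.23, 0.114, 0, 0.190 and 1.42 in SCA-1+ libraries. The latter rest on 46, 2, 0, 6 and 34 counts. The populations did not overlap, and the share of all genes without overlap in these libraries was not counted. Omission of a single library also ended the *Krt8* call, for replicate 1 of tdT+CD49f+CD34+ (adjusted p = 0.0719), tdTnegCD49f+CD34+ replicate 2 (0.0524), tdT+ SCA-1+ replicates 2 (0.0632) or 3 (0.0521), or either tdTneg SCA-1+ library (0.184 and 0.106).

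*Atoh1*, the defining transcription factor gene of Merkel cells, which are the epidermal cells known for KRT8 and KRT18, was at 0 in all 11 libraries. *Sox2* and *Isl1*, which Merkel cells also express, were at most 1.90 CPM, and both had their highest value in tdTnegCD49f+CD34+ replicate 2. The summed level of 8 Merkel cell genes was 12.7 CPM in that library and 1.1 to 4.9 in the other 10. *Krt20*, a further Merkel cell keratin, did not exceed 0.586 CPM.

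**Figure D4:**
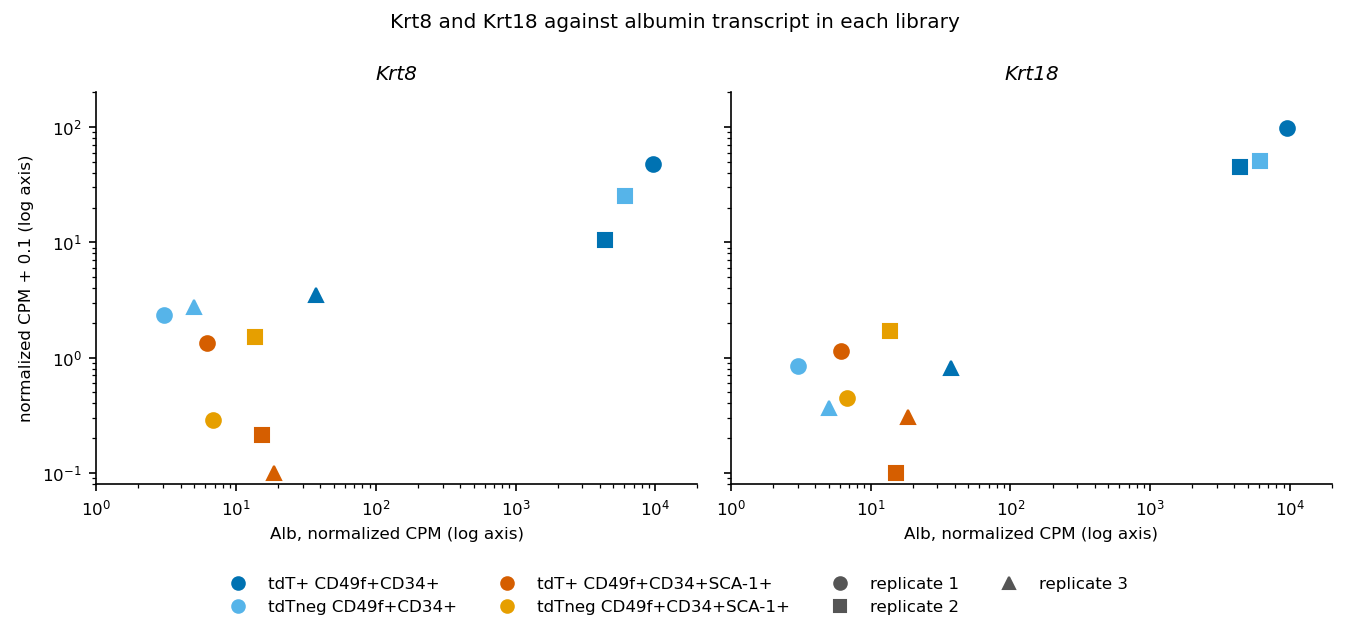
Level of *Krt8* (left) and *Krt18* (right), as normalized CPM plus 0.1, against the level of *Alb* in each library, both on log axes, with a colour for each group and a shape for each replicate. The 3 libraries with *Alb* above 1000 CPM hold the highest values of both keratins, and the other 8 lie under 4 CPM for *Krt8* and under 2 for *Krt18*.

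The second question was whether these keratins differ between tdT+ and tdTneg cells. In SCA-1+ cells *Krt24* was called, with a log2 fold change of -3.26 (SE 0.36, edgeR adjusted p = 0.0017) and every tdT+ library below both tdTneg libraries. It was the only one of the 10 keratins called there, against 2.31% of all genes tested, and it kept its call in all 11 fits that left out a library and, at -3.33 (adjusted p = 0.000396), without the libraries rich in *Alb* (background 5.35%). With the 32-week libraries alone, which leave 1 tdTneg library, it was -3.59 (adjusted p = 0.0870). In the same comparison 6 of 12 bulge genes were called lower, as were 2.06% of all genes (9 without the libraries rich in *Alb*), with a median log2 fold change of -2.33 beside 0.04 over all genes. T cell genes were called higher (3 of 6, against 0.251% of all genes, and 6 without those libraries) and endothelial genes lower (2 of 6, and 6 without them). Their part in the *Krt24* result was not tested. *Krt17* and *Krt75* also had all tdT+ SCA-1+ libraries below both tdTneg ones, with log2 fold changes of -0.77 (adjusted p = 0.437) and -1.93 (adjusted p = 0.328). That pattern was met by 33% of all genes tested in this comparison of 3 with 2 libraries.

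In CD49f+CD34+ cells none of the 10 keratins was called by edgeR, where 0.00985% of all genes were. Of the 10, 2 had an unadjusted p under 0.05, as had 8.42% of all genes. DESeq2 called 1, against 0.924% of the 40782 genes it gave a p. These include genes without an adjusted p, which could not be called, so the share is not on the scale of edgeR's. The nearest was *Krt79*, with all tdT+ libraries above all tdTneg libraries and a log2 fold change of 1.54 (SE 0.31, edgeR adjusted p = 0.179, DESeq2 adjusted p = 3.4e-05). Without the libraries rich in *Alb*, which leaves 1 tdT+ library against 2, edgeR called it (1.76, adjusted p = 0.0369, against 0.158% of all genes). Without the library labelled replicate 2 of tdT+CD49f+CD34+ alone it was 1.83 (adjusted p = 0.0988). In the same comparison over all libraries edgeR called no T cell, Langerhans cell, upper follicle or bulge gene. DESeq2 called 6 of 6, 3 of 6, 3 of 7 and 0 of 12, with edgeR median log2 fold changes of 3.32, 1.82, 0.60 and -0.36. Their part in the *Krt79* result was not tested.

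*Krt24* was lower in all tdT+CD49f+CD34+ than in all tdTnegCD49f+CD34+ libraries (log2 fold change -1.13, SE 0.32, edgeR adjusted p = 0.353), and *Krt15* (-0.49, adjusted p = 0.662) and *Krt6a* (-0.58, adjusted p = 0.800) showed the same order of libraries. Without the library labelled replicate 2 of tdT+CD49f+CD34+ the estimate was -1.15 for *Krt24* (adjusted p = 0.575), -0.40 for *Krt15* (adjusted p = 0.829) and -0.65 for *Krt6a* (adjusted p = 0.869). For *Krt24* it was -1.22 (adjusted p = 0.472) when the libraries rich in *Alb* were omitted. *Krt15*, *Krt24*, *Krt79* and *Krt6a* were the 4 of the 10 keratins without overlap between tdT+ and tdTnegCD49f+CD34+ libraries, as were 16% of all genes tested. For *Krt17*, *Krt75*, *Krt6b*, *Krt16*, *Krt8* and *Krt18* the libraries overlapped.

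The effect of tdT was then compared between the populations. edgeR called none of the 10 keratins, against 0.389% of all genes. Of the 10, 3 had an unadjusted p under 0.05, as had 12.4% of all genes, and DESeq2 called these 3. It called 2.07% of the genes it gave a p, again with genes that could not be called among them. For *Krt24* the effect of tdT was more negative by 2.13 on the log2 scale in SCA-1+ cells (edgeR difference -2.13, SE 0.47, adjusted p = 0.0911, DESeq2 adjusted p = 3.3e-04), and it was called without tdT+ SCA-1+ replicate 2 (-2.62, adjusted p = 0.0327). For *Krt79* the difference was -1.54 (edgeR adjusted p = 0.192), and -1.83 (adjusted p = 0.0296, a call met by 1.02% of all genes) without the libraries rich in *Alb*, where 1 tdT+CD49f+CD34+ library remains. For *Krt75* it was -3.14 (edgeR adjusted p = 0.296).

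Together the 10 keratins held a smaller part of the keratin transcripts in SCA-1+ cells. Of all counts on the 54 keratin genes they took 42.4%, 34.7% and 49.5% in tdT+CD49f+CD34+ and 42.7%, 45.4% and 48.1% in tdTnegCD49f+CD34+ libraries. In SCA-1+ libraries they took 15.04%, 15.4% and 18.6% with tdT and 20.9% and 27.6% without it. The mean was 43.8% ± 5.30 (SD, n = 6) without SCA-1 and 19.5% ± 5.13 (SD, n = 5) with it, a change of -24.3 percentage points (two-sided exact permutation test, p = 0.00216, the smallest it can give, and 0.00926 within replicate numbers, again the smallest). Most of that share lay in *Krt15* and *Krt17*, which took 29.99% to 44.3% of keratin counts in CD49f+CD34+ and 9.39% to 19.5% in SCA-1+ libraries. The other 8 members took 4.33% to 7.18% and 3.58% to 8.08%, and *Krt16*, *Krt6b* and *Krt79* among them were called higher in SCA-1+ cells. The difference was -27.3 points without the libraries rich in *Alb* (exact permutation p = 0.0179). With *Krt5*, *Krt14*, *Krt1* and *Krt10* left out of the total, the 10 keratins held 91.9% ± 5.996 (SD, n = 6) of the rest in CD49f+CD34+ libraries. In SCA-1+ libraries they held 75.2% ± 11.1 (SD, n = 5, exact permutation p = 0.0152, and 0.0278 within replicate numbers), and the populations overlapped. Keratin genes as a whole took 2.25% to 3.28% of all counts in CD49f+CD34+ and 3.21% to 4.64% in SCA-1+ libraries.

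**Figure D5:**
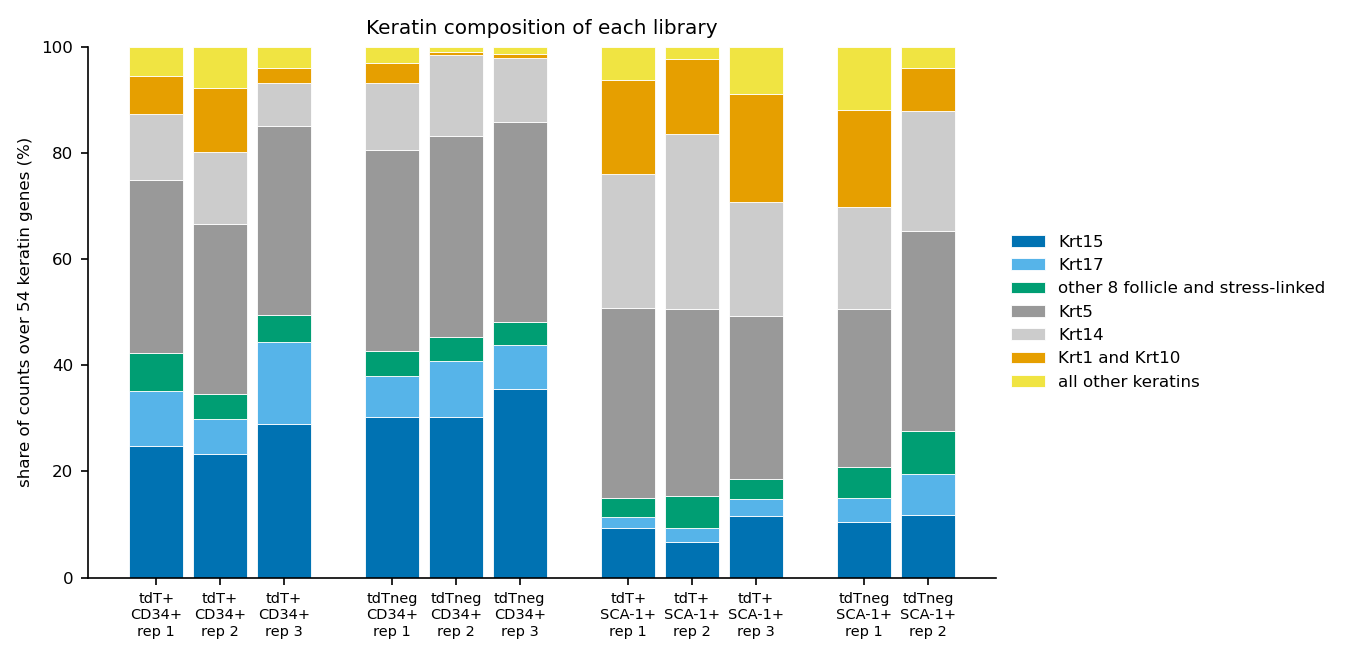
Share of the counts over 54 keratin genes held by single keratins or groups of them, in percent, as one stacked bar per library that sums to 100. The 10 follicle and stress-linked keratins (blue and green) held at least 34.7% in CD49f+CD34+ libraries and at most 27.6% in SCA-1+ libraries.

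Levels can be set between genes only per length, here as normalized CPM per kilobase of the summed exons of all annotated transcripts. On this scale *Krt15* was the highest of all keratins in tdTnegCD49f+CD34+ cells (5792 ± 668, SD, n = 3), above *Krt5* at 5490 by less than its own spread. In tdT+CD49f+CD34+ cells it followed *Krt5*, and in both SCA-1+ groups it followed *Krt5* and *Krt14*. *Krt17* ranked behind *Krt15* in every group and was lowest in tdT+ SCA-1+ cells (744 ± 153, SD, n = 3). The order of the other members differed between the groups. In tdT+CD49f+CD34+ cells the mean level per kilobase was 167 ± 65.6 for *Krt79*, 147 ± 3.97 for *Krt24*, 118 ± 11.3 for *Krt6a* and 78.2 ± 31.2 for *Krt16* (SD, n = 3), where *Krt79* and *Krt24* differed by less than the larger SD. In tdTnegCD49f+CD34+ cells it was 322 ± 39.3 for *Krt24*, 177 ± 27.9 for *Krt6a*, 70.1 ± 18.03 for *Krt16* and 57.4 ± 16.6 for *Krt79* (SD, n = 3), where *Krt16* and *Krt79* differed by less than the larger SD. The rarest members had means per kilobase over the 6 CD49f+CD34+ libraries of 22.5 for *Krt18*, 7.76 for *Krt8*, 4.16 for *Krt6b* and 4.05 for *Krt75*. In the 3 of these libraries not rich in *Alb* the mean per kilobase was 2.55 for *Krt75*, 1.40 for *Krt8*, 1.27 for *Krt6b* and 0.401 for *Krt18*, so that *Krt18* came last. In tdT+ SCA-1+ cells *Krt16* stood at 336 ± 107 per kilobase, *Krt79* at 205 ± 19.2, *Krt6a* at 153 ± 126, *Krt6b* at 37.1 ± 36.0 and *Krt24* at 5.58 ± 2.50 (SD, n = 3). In tdTneg SCA-1+ cells the order was *Krt16* at 324 ± 4.68, *Krt6a* at 230 ± 138, *Krt79* at 205 ± 11.9, *Krt24* at 53.4 ± 25.2 and *Krt6b* at 32.6 ± 12.3 (SD, n = 2). Neighbours in these last orders differed by more than the larger SD for *Krt16* and *Krt79* with tdT and for *Krt79* and *Krt24* without it, and by less for the others.

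Across the 11 libraries some members moved together, described here by Pearson's r of log2 CPM (prior count 2). The points share library and sort gate, so r carries the difference between populations. *Krt6b* went with *Krt16* (r = 0.92), *Krt8* with *Krt18* (0.87), *Krt24* with *Krt17* (0.81) and *Krt15* with *Krt24* (0.75). *Krt15* ran against *Krt16* (-0.94) and *Krt6b* (-0.88). *Krt6a* went with *Krt6b* at r = 0.31 and with *Krt16* at 0.20.

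The genes most like each keratin over the 11 libraries, out of 20307, were named by the same measure. For *Krt24* they were *Arhgef25*, *Trabd2b*, *Klhl29*, *Pdlim3* and *Cd164l2*, with r of 0.99 for each. For *Krt15* they were *Snhg18*, *Eda*, *Kctd2*, *Pcnx4* and *Slc5a6* (0.97 to 0.98). *Krt17* was most like *Pttg1ip*, *Krtap16-1*, the bulge transcription factor gene *Nfatc1*, *Zbtb39* and *Phyhip* (0.95 to 0.97), and *Krt79* most like *Pgap1*, the protease inhibitor gene *Cst6*, *Sdr16c5*, *Acsl4* and *Ephb2* (0.92 to 0.96). *Krt6b* was most like *Sprr2h*, a cornified envelope gene (0.98), *Glrx*, *Wipf1*, *Tgtp2* and *B3gnt5*, and *Krt16* most like *Smox*, *Gars*, *Smad3*, *Actb* and *Rnf4* (0.97 to 0.98). *Krt18* was most like *Fbp1*, *Lipc*, *Nr1i3*, *Adamts13* and *Cpb2* (0.97 to 0.98), all of them known for expression in liver, and *Krt8* most like *Agpat2*, *Prtn3*, *Atp7b*, *Abcc6* and *Gm19426* (0.95 to 0.97). *Krt6a* was most like *Garem2*, *Pgp*, the collagen gene *Col1a1*, *Arpc1b* and *Cd248* (0.89 to 0.92), and *Krt75* most like *Scube3*, *Sfrp2*, *Ednrb*, *Tram1* and *2310034G01Rik* (0.86 to 0.91).

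The neighbouring keratins were read alongside. Of the 44 other keratin genes 38 were tested, and between populations 5 were called higher and 1 lower in SCA-1+ cells, against 11.6% of all genes in either direction. Higher were *Krt14* (log2 fold change 1.28), *Krt1* (2.97), *Krt10* (2.23) and the inner root sheath keratins *Krt27* (2.27) and *Krt71* (2.86), and *Krt222* (-1.85) was lower. These calls held without the libraries rich in *Alb*, where *Krt26* was called higher as well. With the replicate number as a block, *Krt27*, *Krt71* and *Krt222* were not called (edgeR adjusted p = 0.0733, 0.0760 and 0.0529). *Krt71* stood at 194 and 225 CPM in tdTneg SCA-1+ and 97.9, 7.10 and 3.46 in tdT+ SCA-1+ libraries, beside 2.87 to 21.3 in CD49f+CD34+ libraries. Within tdT+ cells alone neither *Krt27* (0.82, adjusted p = 0.565) nor *Krt71* (1.90, adjusted p = 0.274) was called. Between tdT+ and tdTneg SCA-1+ cells *Krt73*, also of the inner root sheath, was called lower (-5.92, edgeR adjusted p = 0.0028), at 0.3 to 0.7 CPM against 34.8 and 37.5.

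Gene groups around the 10 keratins were counted between populations in the same fit. Of 12 bulge genes 10 were called lower in SCA-1+ cells, against 6.79% of all genes, and 10 without the libraries rich in *Alb*, against 4.88%. Among them were *Cd34* (log2 fold change -2.98), *Tcf7l1* (-2.03), *Lhx2* (-2.90) and *Tbx1* (-2.72). Within tdT+ cells 10 of the 12 were called lower, against 5.54% of all genes, and within tdTneg cells 4, against 1.45%. The difference between the states, which equals the difference in the tdT effect, was called for 2 of the 12, against 0.389% of all genes. Of 7 upper follicle genes 1 was called higher, against 4.77% of all genes, and 2 had an unadjusted p under 0.05 in edgeR. The called gene was *Klk10*, encoding a kallikrein protease (1.90). Of 20 wound response genes 7 were called higher and 1 lower, against 10 higher and none lower without the libraries rich in *Alb* (edgeR, where 4.77% and 8.74% of all genes were called higher). Within tdT+ cells 1 of the 20 was called higher, against 2.91% of all genes, and within tdTneg cells 5, against 3.29%, and the difference between the states was called for 1 of the 20. Both counts within a state were larger without the libraries rich in *Alb*, where 1 tdT+CD49f+CD34+ library remains. *Sprr1a* (1.71) and *Sprr1b* (3.40), genes of the cornified envelope, and *Areg* (2.62), an EGF receptor ligand, were higher with no overlap of libraries. *Il1b* was higher as well (1.83), with overlap. *Lcn2*, named because it was the gene called lower (-5.63), stood at 597, 305 and 257 CPM in the libraries rich in *Alb* and at most 7.15 elsewhere.

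Of 10 genes for keratin partners in desmosomes and the cytoskeleton, 1 was called, the plakophilin gene *Pkp1* (1.17, higher in SCA-1+ cells), a share near the 11.6% of all genes called. Of 10 genes of the dissociation response none was called by edgeR or DESeq2 and 1 had an unadjusted p under 0.05. Melanocyte genes (3 of 6, against 6.79% of all genes) were called lower in SCA-1+ cells, and T cell genes (6 of 6) and Langerhans cell genes (5 of 6) were called higher, as were 4.77% of all genes. Of 7 sebaceous genes 1 was called higher, *Fabp5*. Only 3 of the 7 had a higher estimate, and their median log2 fold change was -0.28. All 6 T cell genes were called within each tdT state, whereas Langerhans cell genes were called higher within tdTneg cells (4 of 6) and not within tdT+ cells (0 of 6 by edgeR and DESeq2, 1 at an unadjusted p under 0.05). The difference between the states was called for none of these 6 by edgeR and for 3 by DESeq2, with 4 at an unadjusted p under 0.05. Without the libraries rich in *Alb*, more Langerhans cell genes were called higher within each state, tdT+ included. That fit leaves 1 tdT+CD49f+CD34+ library, so the contrast between the states is uncertain. None of 6 endothelial, 6 fibroblast and 3 tested Merkel cell genes was called by edgeR or DESeq2, with 2, 0 and 0 at an unadjusted p under 0.05. Without the libraries rich in *Alb* all 6 endothelial genes were called higher in SCA-1+ cells, against 8.74% of all genes, and 2 of the melanocyte and 2 of the sebaceous genes were called, against 13.6%. Whether these cell types bear on the keratin values was not tested.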

How the data were processed

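RNA of 11 libraries (2 pooled mice each) had been sequenced from TruSeq libraries, whose kit does not mark strand, aligned by the authors with STAR to mm10 and counted on Ensembl 96 genes with featureCounts. The strand and multimapping settings are not given in the sources used here. The deposited values are raw counts per gene, not normalized. The authors used DESeq2.

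Groups came from the sample labels. Counts of 20307 genes that passed filterByExpr were tested in 1 fit of all 11 libraries with edgeR 4.0.16 (R 4.3.3) by its quasi-likelihood test, TMM scaling and Benjamini-Hochberg adjustment. The common biological coefficient of variation was 0.608. Normalized CPM use TMM library sizes. The script was tested on simulated data. Shares were compared by exact permutation tests (Python 3.11.15 with numpy 2.4.6), repeated within replicate numbers, and coding sequences of the annotation (GENCODE M21, GRCm38) were aligned with Biopython 1.88. DESeq2 1.42.0, RLE scaling, other filters, no fold threshold, a replicate block, the 32-week libraries and the omission of each library served as alternatives. Total counts from 17409131 to 46542177 per library set the counting precision, and p-values measure the spread between libraries, which the main tests treat as independent although same-numbered ones may share a pool.

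Same-numbered libraries are read as sorted from the same pool of mice, since 3 pools are described in all. Deviations from group means correlated with a median of 0.0828 over 15 same-numbered pairs (-0.415 to 0.589) and -0.0226 over 30 other pairs. The members and gene lists were chosen with earlier results of these data known. The hepatocyte list, the setting without the libraries rich in *Alb* and both keratin ratios were chosen after the values were seen. Genes outside the 10 were named by rule: every other called keratin, up to 4 called genes per list by adjusted p, and the 5 genes with the highest r for each member.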

Additional observations from a re-analysis of the deposited data

Results flagged for a closer look

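A row outside the Ensembl genes, whose content is not described in the sources used here, was high in 5 of the 6 tdT+ libraries. It held 133 and 252 CPM in tdT+CD49f+CD34+ replicates 1 and 3 and 254, 224 and 307 CPM in tdT+ SCA-1+ replicates 1, 2 and 3. The 5 tdTneg libraries held 2.54 to 4.89 CPM. The library labelled replicate 2 of tdT+CD49f+CD34+ held 2.05 CPM, below every tdTneg library. Its T cell genes summed to 35.3 CPM, beside 19.3 and 44.1 in the other tdT+CD49f+CD34+ libraries and 1.2 to 4.5 in tdTnegCD49f+CD34+ libraries. These readings differ, and the tdT state of this library is uncertain. Its label was kept. Without it 0, 1, 6, 3, 4 and 0 of the 10 keratins were called for tdT in CD49f+CD34+ cells, tdT in SCA-1+ cells, between populations, within tdT+, within tdTneg and for the difference in the tdT effect. Of all 20392 genes tested in that fit 0%, 2.72%, 11.3%, 8.11%, 5.01% and 0.309% were called by edgeR, and for tdT in CD49f+CD34+ cells 1500 had an unadjusted p under 0.05. Within tdT+ cells *Krt24* was then -4.71 (edgeR adjusted p = 0.000615), *Krt16* 2.32 (adjusted p = 0.0090), *Krt17* -1.70 (adjusted p = 0.0176) and *Krt15* -0.92 (adjusted p = 0.0940). For the difference *Krt24* was -2.12 (adjusted p = 0.169), *Krt79* -1.83 (adjusted p = 0.0839) and *Krt75* -3.53 (adjusted p = 0.308).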

How the results depend on the processing

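Between populations (mean over tdT), *Krt15* (-1.26 to -1.06), *Krt24* (-3.92 to -3.46) and *Krt16* (2.01 to 2.27) kept their calls in all 11 fits that left out a library. The number of the 10 keratins called ranged there from 4 to 8 between populations, from 2 to 5 within tdT+ (5 without tdTnegCD49f+CD34+ replicate 2, against 3), from 0 to 5 within tdTneg (0, 2 and 1 without SCA-1+ replicates 1 and 2 and CD49f+CD34+ replicate 3, against 4) and from 0 to 1 for the difference in the tdT effect, and it stayed at 0 and 1 for tdT in CD49f+CD34+ and SCA-1+ cells. With the 32-week libraries alone it was 2 between populations, 1 within tdT+, 0 within tdTneg and 0 for tdT in SCA-1+ cells, with fewer samples. For tdT in CD49f+CD34+ cells DESeq2, a minimum of 1 count in any library and the omission of the libraries rich in *Alb* each gave 1. Within tdT+ cells these settings gave 6, 6 and 5, and for the difference 3, 2 and 1, with 1 also from a minimum of 10 counts in every library. The causes were not tested. The fit with the replicate number as a block called 7 between populations against 6, changed the calls of *Krt18* (-5.18) and of *Krt8* within tdT+ (-5.53) and no other call of the 10, and gave *Krt18* as 0.43 for tdT in SCA-1+ cells. RLE scaling changed no call.

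Signs turned for estimates that were not called. For tdT in CD49f+CD34+ cells, the 32-week libraries gave *Krt75* -0.044, *Krt8* -1.03 and *Krt18* -0.17, the omission of the libraries rich in *Alb* gave *Krt6b* -2.33 and *Krt16* -0.59, and leaving out 1 library gave *Krt17* -0.35 to 0.41, *Krt16* -0.062 to 0.45 and *Krt8* -0.55 to 3.06. For tdT in SCA-1+ cells, *Krt16* was -0.018 with a minimum of 1 count and -0.014 without the libraries rich in *Alb*, and leaving out 1 library gave *Krt79* -0.10 to 0.072, *Krt6a* -1.58 to 0.14, *Krt6b* -0.95 to 0.70, *Krt16* -0.28 to 0.24, *Krt8* -3.76 to 1.29 and *Krt18* -3.11 to 0.36. Between populations *Krt75* was 0.29 at 32 weeks and -0.84 to 0.062 with 1 library left out, *Krt6a* -0.078 to 0.62, and *Krt18* 0.11 without the libraries rich in *Alb*. Within tdT+ cells *Krt79* was -0.12 without those libraries and *Krt6a* -0.59 to 0.69. Within tdTneg cells *Krt18* was 0.96 without those libraries and -5.57 to 0.90 with 1 library left out, and *Krt6a* -0.36 to 0.88.

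Over all genes, edgeR called 2 and 470 for tdT in CD49f+CD34+ and SCA-1+ cells, 2347 between populations, 1715 and 963 within tdT+ and tdTneg, and 79 for the difference. DESeq2 called 377, 1230, 3540, 3423, 2162 and 845. A minimum of 1 count gave 166, 885, 2822, 2462, 1410 and 568, and a minimum of 10 counts in every library 20, 557, 1677, 1603, 1167 and 263. The 32-week libraries gave 0, 0, 299, 178, 0 and 0, with 719, 1649 and 1634 and 1123 genes at an unadjusted p under 0.05 for tdT in CD49f+CD34+, tdT in SCA-1+, within tdTneg and the difference. Without the libraries rich in *Alb* 34, 1149, 2927, 2067, 1820 and 218 were called. Leaving out 1 library gave 0 to 7 and 97 to 700 for tdT in CD49f+CD34+ and SCA-1+ cells (97 and 240 without tdTneg SCA-1+ replicates 2 and 1), 1160 to 2510 between populations, 1174 to 2233 within tdT+, 55 to 1300 within tdTneg (55 without tdTneg SCA-1+ replicate 1) and 1 to 376 for the difference (1 without tdTneg SCA-1+ replicate 2, 376 without tdT+CD49f+CD34+ replicate 3).

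Under each omission of 1 library the share of the 10 keratins differed between populations by -26.3 to -23.2 percentage points. Libraries did not overlap in this share, so its permutation p was the smallest possible and does not measure stability. The *Krt6b* share (9.72 to 14.6 points) and the *Krt24* to *Krt15* ratio (-3.54 to -2.35) stayed past the threshold. Both were chosen after their values were seen, so this adds no independent support. Without the libraries rich in *Alb* the *Krt24* to *Krt15* ratio did not pass (-2.89, exact permutation p = 0.0714). With 2 or 3 libraries per group and *Krt6b*, *Krt8* and *Krt18* near or under 1 CPM in some of them, estimates for these genes had the widest intervals.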
